A study of Canis lupus familiaris with 60 samples.

Results

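KIT, MS4A2, FCER1A and CMA1 are genes by which mast cells are recognized: MS4A2 and FCER1A encode chains of the receptor for IgE, KIT a growth factor receptor and CMA1 a stored protease. They are 4 of the 1436 dog genes that could be named on the array, and they were chosen by symbol: every probe was taken whose transcript identifier, without its version, belongs to 1 of these genes in the dog RefSeq gene table, or whose symbol in the study's own gene list is 1 of them. Skin was studied in 12 Beagle dogs aged 2 to 3 years. Of these dogs, 6 had been sensitized to Dermatophagoides farinae, a mite of house dust, with positive skin tests and IgE against the mite, and 6 were nonsensitized. The sensitized dogs were 4 males and 2 females and the nonsensitized dogs 2 males and 4 females, so sex was not balanced between them. Each dog carried patches with 75 mg of mite paste (allergen) or 50 µl of saline, and gave 5 punch biopsies of 8 mm: untreated skin at 0 hr, then a saline and an allergen site at 6 hr and again at 24 hr. Sensitization, time and patch thus defined 10 groups of 6 dogs, with 1 Cy3-labeled array per biopsy. A saline site was skin that had been patched and bandaged beside an allergen site of the same animal, so it is not the same as untreated skin.

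The 24 hr allergen site of sensitized dog 2839 (specimen 14), whose RNA was degraded, was left out, as the study did, which leaves 5 dogs in that group and 59 of the 60 arrays. The median processed signal of the 59 arrays lay between 81.7 and 146, and between 68.8% and 80.2% of their spots were well above background. Specimen 14 had a median signal of 71.0 and 67.6% of spots well above background. Signals were higher at 24 hr, where the 4 group medians of the array medians lay between 123 and 135, than at 0 hr and 6 hr, where the other 6 lay between 88.2 and 108. Levels are therefore given after scaling between arrays, on the log2 scale. The number of arrays, 5 or 6 to a group, limits the precision of each value.

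IgE binds to mast cells through the high-affinity receptor FcεRI, which holds an alpha chain that binds IgE (FCER1A), a beta chain that amplifies the signal (MS4A2) and a pair of gamma chains that carry it on (FCER1G). When allergen links the IgE on neighboring receptors, the cell releases stored mediators such as histamine and proteases, among them chymase (CMA1). KIT is the receptor for stem cell factor, on which mast cells depend for growth and survival, and it is also made by melanocytes. In skin, mast cells lie mainly in the dermis around vessels. The alpha chain is found on basophils and some dendritic cells as well.

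The 4 genes were carried by 8 probes, of which 7 passed the filter on dim probes, and these 7 were well above background on 60 of 60 arrays. The probe that did not pass was the third probe for KIT, which was well above background on 1 of 60 arrays, with a median signal of 3.77. For each gene the brightest probe served as its main probe. The main and second probes moved together over the 59 arrays, with r = 0.936 for FCER1A, 0.980 for MS4A2 and 0.901 for KIT, where the points share dogs and slides. CMA1 had 1 probe. Levels of different probes or genes are not compared, since each probe binds with its own efficiency; where a gene is called the brightest of a list, this names the probe with the most signal and no more.

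Before the patch, the 4 genes showed no DEG between sensitized and nonsensitized dogs, and the ranges of both groups overlapped for each gene. FCER1A lay at 9.92, 10.39 and 10.68 (lowest, median and highest log2 level) in untreated skin of the 6 sensitized dogs and at 9.78, 10.72 and 11.22 in the 6 nonsensitized dogs. MS4A2 lay at 8.21, 8.50 and 8.86 in sensitized dogs and at 7.82, 8.88 and 9.61 in nonsensitized dogs. For both chains of the IgE receptor, the nonsensitized dogs held the lowest as well as the highest value, so their spread enclosed that of the sensitized dogs. KIT lay at 7.80, 8.34 and 8.58 in sensitized dogs and at 8.05, 8.13 and 8.40 in nonsensitized dogs. CMA1 lay at 8.15, 8.51 and 8.72 against 7.90, 8.58 and 9.19. For KIT it was the sensitized dogs that spread more widely, while CMA1 followed the pattern of the receptor chains.

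A DEG is a probe with a limma p-value below 0.05 after adjustment over all 45972 probes tested (FDR 5%) and a change of at least 1.5-fold. By this rule 0 of the 4 genes differed in untreated skin, against 0.00218% of all probes. An unadjusted p below 0.05 was found for 0 of the 4, against 3.35% of all probes. The log2 differences, sensitized minus nonsensitized, were -0.24 (SE 0.25) for FCER1A, -0.27 (SE 0.27) for MS4A2, 0.13 (SE 0.15) for KIT and -0.16 (SE 0.27) for CMA1. With single dogs left out they ran from -0.41 to -0.12, -0.46 to -0.10, 0.07 to 0.22 and -0.31 to -0.05 in the same order. The exact permutation of the dogs' labels gave p between 0.346 and 0.494 for the 4 genes. The standard errors leave room for differences in either direction. Both groups of untreated skin shared slides 7 and 8, and within these slides FCER1A differed by -0.28 and -0.45, MS4A2 by -0.13 and -0.71, CMA1 by -0.10 and -0.38, and KIT by 0.25 and -0.16, with a change of sign.

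**Figure D1:**
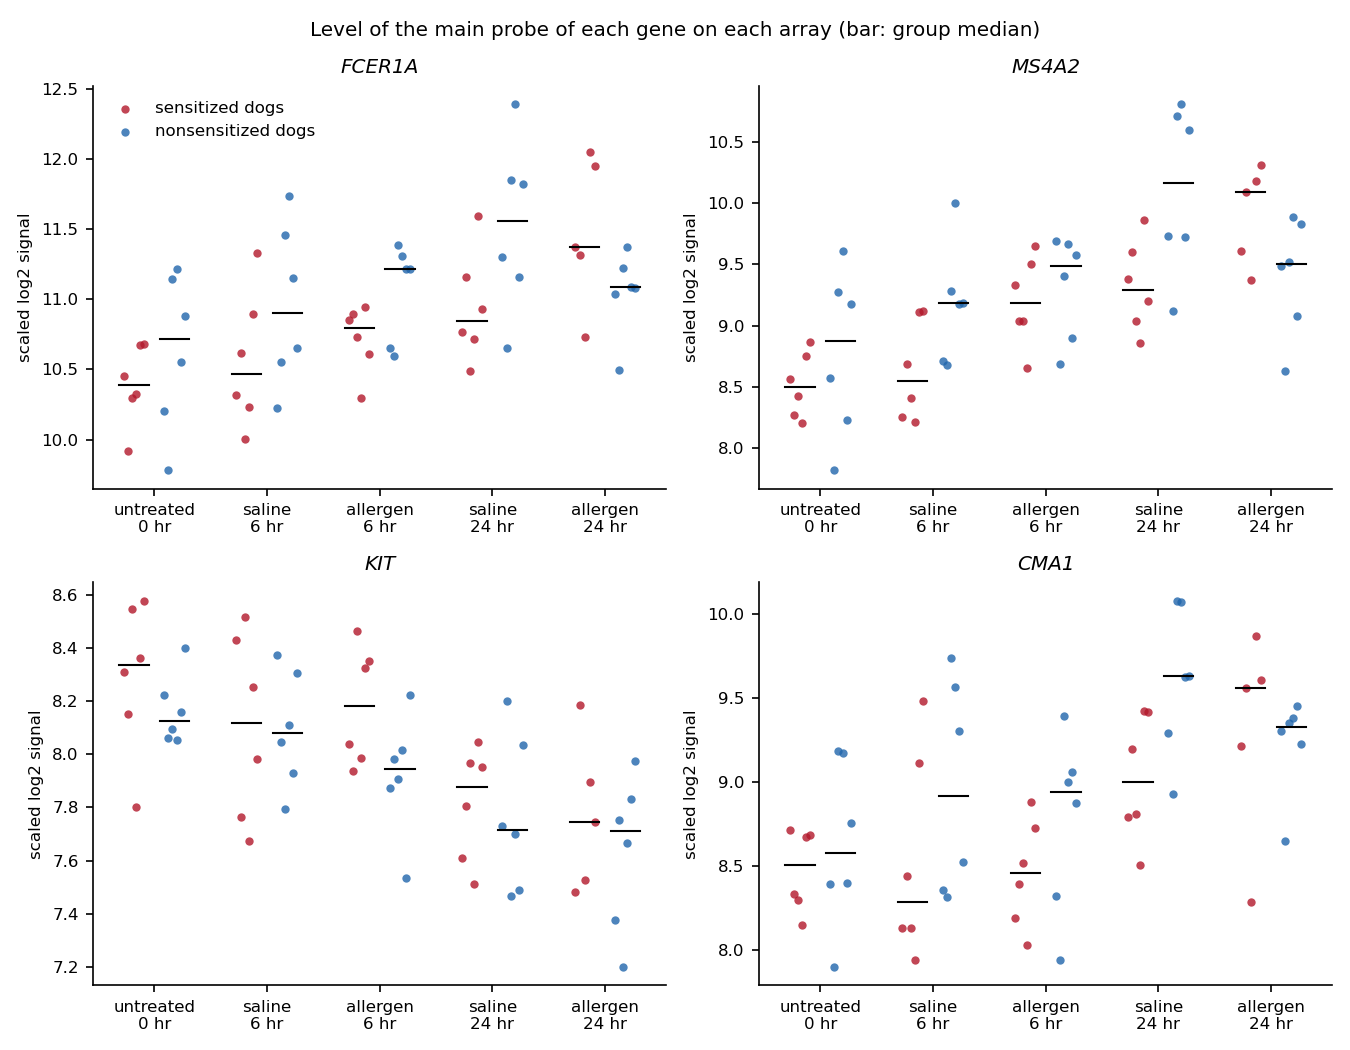
Scaled log2 signal of the main probe of FCER1A, MS4A2, KIT and CMA1 (vertical axes) in untreated skin and at saline and allergen sites at 6 hr and 24 hr (horizontal axes), 1 point per array, red for sensitized and blue for nonsensitized dogs, with bars at group medians. At 24 hr the median of MS4A2 was 10.16 at saline and 9.50 at allergen sites of nonsensitized dogs, and 9.29 and 10.09 in sensitized dogs.

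Across the 10 groups, FCER1A, MS4A2 and CMA1 had a like order of medians, and KIT ran the other way. The lowest median of FCER1A was 10.39 in untreated skin of sensitized dogs and the highest was 11.56 at 24 hr saline sites of nonsensitized dogs, with the 24 hr allergen sites of sensitized dogs next at 11.37. For MS4A2 the same groups stood at the ends, with 8.50 and 10.16, and the 24 hr allergen sites of sensitized dogs were again next to the top, at 10.09. CMA1 ran from 8.29 at 6 hr saline sites of sensitized dogs to 9.63 at 24 hr saline sites of nonsensitized dogs. KIT ran from 7.71 at 24 hr allergen sites of nonsensitized dogs to 8.34 in untreated skin of sensitized dogs, and its 4 groups from 24 hr were its 4 lowest. For each gene, every pair of groups next to each other in this order overlapped.

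At 6 hr the receptor beta chain MS4A2 gave the largest difference of the 4 genes between allergen and saline sites, in sensitized dogs, and it did not pass the test. MS4A2 lay at 8.21, 8.55 and 9.12 at saline sites of sensitized dogs and at 8.65, 9.18 and 9.65 at allergen sites, while in nonsensitized dogs it lay at 8.68, 9.18 and 10.00 at saline and at 8.69, 9.49 and 9.69 at allergen sites. The ranges of saline and allergen sites overlapped in both groups of dogs. Within single dogs, the allergen site was higher in 6 of 6 sensitized dogs, by 0.35, 0.49 and 1.07 (lowest, median and highest), and in 4 of 6 nonsensitized dogs, from -0.33 over 0.07 to 0.98. By its second probe MS4A2 was higher in 2 of 6 nonsensitized dogs, with a median of -0.08. The exact sign-flip test over the sensitized dogs gave p = 0.03125, the smallest it can give with 6 dogs, and adjusted p = 0.0852 over the 60 tests of this kind. In limma the difference was 0.57 (SE 0.27), with adjusted p = 0.473. With the dog as a fixed block adjusted p was 0.0175, and with it as a random block 0.0907, at the same difference, which is under the fold limit.

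In sensitized dogs the alpha chain FCER1A, KIT and CMA1 showed smaller differences at 6 hr than MS4A2. In nonsensitized dogs CMA1 (-0.20 in limma) and KIT (-0.17) differed by more in size than MS4A2 (0.15), and FCER1A (0.10) by less. By the main probes, the allergen minus saline difference within a dog was positive for FCER1A in 5 of 6 sensitized dogs, between -0.72 and 0.73, and in 4 of 6 nonsensitized dogs, between -0.43 and 0.56. For KIT it was positive in 4 of 6 sensitized and 1 of 6 nonsensitized dogs. For CMA1 it was positive in 3 of 6 sensitized and 1 of 6 nonsensitized dogs. Dogs thus differed in sign for each of these genes. In limma 0 of the 4 genes were DEG in sensitized dogs, against 0.42% of all probes, with 1 of 4 (MS4A2) at an unadjusted p below 0.05, where 9.52% of all probes had such a p. In nonsensitized dogs 0 of the 4 were DEG, against 0.0348% of all probes, and 0 of 4 had an unadjusted p below 0.05, against 5.46%. The difference between the responses of both groups of dogs also gave 0 of 4, against 0% of all probes. For this difference 0 of 4 had an unadjusted p below 0.05, against 1.14% of all probes. It was 0.42 (SE 0.38) for MS4A2.

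By the main probes, at 24 hr the allergen site of sensitized dogs held more MS4A2 and FCER1A RNA than the saline site of the same dog, in 5 of 5 dogs for both genes, and the allergen site of nonsensitized dogs held less, in 6 of 6 dogs for both genes. By the second probe of FCER1A, 1 of 6 nonsensitized dogs was above 0, at 0.0421. The share of all probes that split the dogs in this way is not given here, so how unusual the split is cannot be told. In the unpaired fit, 14.2% of all probes had an unadjusted p below 0.05 for the difference between these responses. With each dog as a block, the beta chain MS4A2 and the alpha chain FCER1A were DEG for the difference between these responses. In the unpaired fit neither main probe was, while the second probe of MS4A2 was. In whole biopsies a change in the number of cells that make an RNA and a change in the RNA per cell cannot be told apart.

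MS4A2 at 24 hr saline sites lay at 8.86, 9.29 and 9.86 in the 6 sensitized dogs and at 9.12, 10.16 and 10.81 in the 6 nonsensitized dogs. On the allergen side at 24 hr it lay at 9.38, 9.61, 10.09, 10.18 and 10.31 in the 5 sensitized dogs and at 8.63, 9.50 and 9.89 in the 6 nonsensitized dogs. The ranges overlapped in each pair of groups, and the saline sites of nonsensitized dogs reached highest. Within a dog, allergen minus saline was 0.23, 0.32, 0.51, 1.06 and 1.11 in sensitized dogs and -1.19, -0.70 and -0.24 (lowest, median and highest) in nonsensitized dogs, so that the differences of both groups of dogs did not overlap. The mean difference between them was 1.35 on the log2 scale, with p = 0.00216 in the exact permutation of the dogs' labels, the smallest that 5 against 6 dogs can give, and adjusted p = 0.0649 over the 60 tests. Within sensitized dogs the exact sign-flip test could not go below p = 0.0625 with 5 dogs.

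FCER1A at 24 hr saline sites lay at 10.49, 10.85 and 11.59 in sensitized and at 10.65, 11.56 and 12.39 in nonsensitized dogs. On the allergen side at 24 hr it lay at 10.73, 11.31, 11.37, 11.95 and 12.05 in the 5 sensitized dogs and at 10.49, 11.09 and 11.37 in the 6 nonsensitized dogs. Groups overlapped in level here too. Within a dog, allergen minus saline was 0.02, 0.46, 0.61, 0.82 and 1.02 in sensitized dogs and -1.02, -0.44 and -0.07 in nonsensitized dogs. Again no sensitized dog fell among the nonsensitized dogs, although dog 2841, at 0.02, had almost equal sites. The mean difference was 1.06, with the same smallest p = 0.00216 in the exact permutation and adjusted p = 0.0649.

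The protease gene CMA1 leaned the same way with more overlap. At 24 hr saline sites it lay at 8.51, 9.00 and 9.42 in sensitized and at 8.93, 9.63 and 10.08 in nonsensitized dogs. At allergen sites it lay at 8.29, 9.21, 9.56, 9.61 and 9.87 in sensitized dogs and at 8.65, 9.33 and 9.45 in nonsensitized dogs. Within a dog, allergen minus saline was -0.22, 0.19, 0.42, 0.45 and 0.75 in sensitized dogs, and it was negative in 5 of 6 nonsensitized dogs, from -0.73 over -0.34 to 0.01. Dog 2841 again stood lowest among the sensitized dogs, inside the range of the nonsensitized dogs. The mean difference of 0.70 had an exact permutation p = 0.013 and adjusted p = 0.0852.

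KIT showed no such split at 24 hr. It lay at 7.51, 7.88 and 8.05 at saline sites of the sensitized animals and at 7.48, 7.53, 7.75, 7.90 and 8.19 at their allergen sites. In nonsensitized dogs it lay at 7.47, 7.71 and 8.20 at saline and at 7.20, 7.71 and 7.97 at allergen sites. By the main probe, allergen minus saline was positive in 2 of 5 sensitized dogs and negative in 5 of 6 nonsensitized dogs, while by the second probe it was positive in 3 of 6 nonsensitized dogs. For the main probe the exact permutation p for the difference was 0.571.

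**Figure D2:**
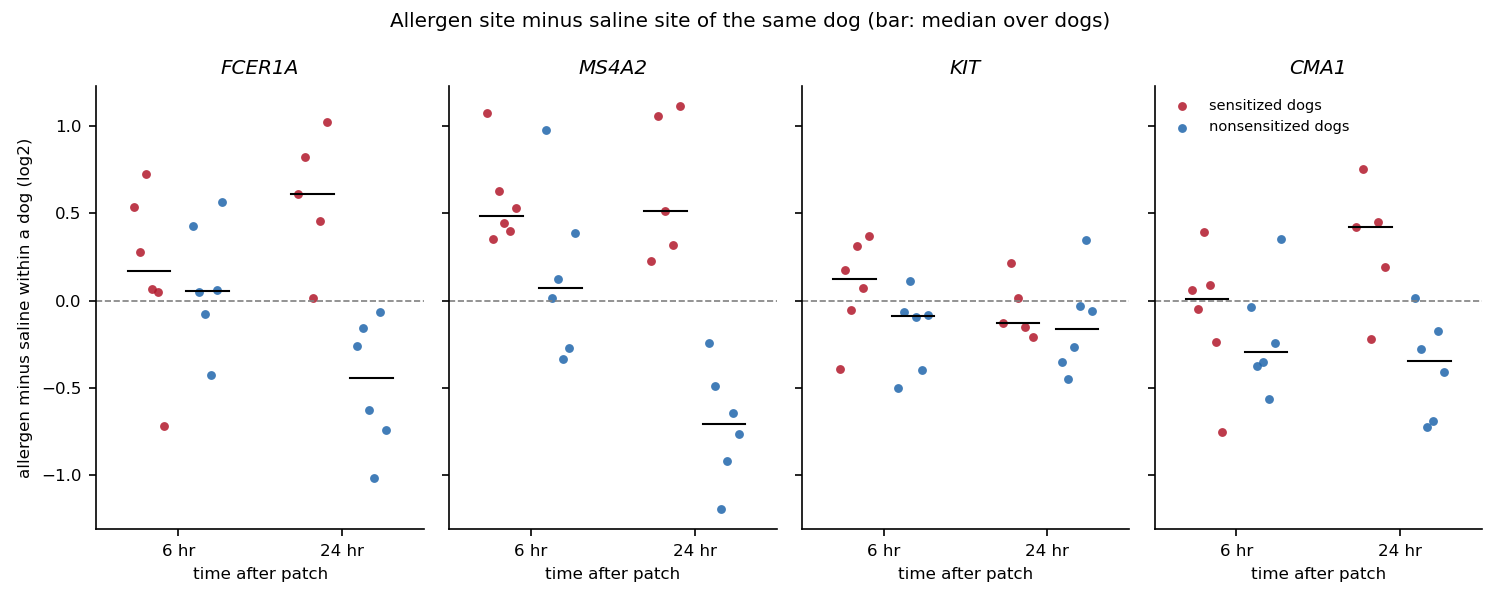
Allergen site minus saline site of the same dog (log2, vertical axis) at 6 hr and 24 hr (horizontal axes) for FCER1A, MS4A2, KIT and CMA1, 1 point per dog, red for sensitized and blue for nonsensitized dogs, with bars at medians. By the main probes, at 24 hr all 5 sensitized dogs lie above 0 and all 6 nonsensitized dogs below 0 for FCER1A and MS4A2.

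In the unpaired limma fit, 0 of the 4 genes were DEG between allergen and saline sites at 24 hr in sensitized dogs, against 0.274% of all probes, and 2 of 4 (MS4A2 and FCER1A) had an unadjusted p below 0.05, as did 11.2% of all probes. The log2 differences were 0.59 (SE 0.28) for MS4A2, 0.54 (SE 0.27) for FCER1A, 0.28 (SE 0.28) for CMA1 and -0.05 (SE 0.15) for KIT. In nonsensitized dogs 0 of the 4 were DEG, against 0.766% of all probes, and 1 of 4 (MS4A2) had an unadjusted p below 0.05, as did 11.7% of all probes. There the differences were -0.71 (SE 0.27), -0.48 (SE 0.25), -0.38 (SE 0.27) and -0.14 (SE 0.15) in the same order. The difference between both responses gave 0 DEG of 4 by main probe, against 0.942% of all probes, with 2 of 4 (MS4A2 and FCER1A) at an unadjusted p below 0.05, as for 14.2% of all probes. It was 1.30 (SE 0.39, adjusted p = 0.0738) for MS4A2, which is 2.46-fold, 1.02 (SE 0.37, adjusted p = 0.148) for FCER1A, 0.66 (SE 0.39, adjusted p = 0.465) for CMA1 and 0.09 (SE 0.21, adjusted p = 0.939) for KIT.

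The second probe of MS4A2, printed on 11 spots, gave nearly the same difference, 1.31 (SE 0.35), and passed the test with adjusted p = 0.0410. MS4A2 is on the study's list of genes that differed at 24 hr on these same arrays, so its call here is not independent evidence. FCER1A, KIT and CMA1 are not on that list. The second probe of FCER1A gave 0.96 (SE 0.35, adjusted p = 0.147).

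With the dog as a random block, the difference between the 24 hr responses was 1.30 for MS4A2 (adjusted p = 0.00278) and 1.02 for FCER1A (adjusted p = 0.0164), both DEG, where 3.09% of all probes were. With the dog as a fixed block 3 of the 4 genes were DEG, where 3.54% of all probes were: MS4A2 at 1.30 (adjusted p = 0.000233), FCER1A at 1.02 (adjusted p = 0.00452) and CMA1 at 0.66 (adjusted p = 0.0388). The lower MS4A2 level at allergen than at saline sites of nonsensitized dogs, -0.71, was a DEG with either block (adjusted p = 0.0149 and 0.000921). The higher level in sensitized dogs, 0.59, was a DEG with the fixed block (adjusted p = 0.0118). FCER1A there, at 0.54, had adjusted p = 0.0410 with the fixed block and was under the fold limit. The estimates themselves hardly moved, which the design largely fixes, since nearly every dog gave both sites.

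With all 60 arrays, which include specimen 14 with its degraded RNA and lowest median signal (71.0), the 24 hr difference for MS4A2 was 1.52 (adjusted p = 0.0308) and that for FCER1A 1.20 (adjusted p = 0.0682). Without nonsensitized dog 2716 it was 1.34 for MS4A2 (adjusted p = 0.0338). The 24 hr arrays lay mainly on slides 1 to 3, and all 4 groups of 24 hr sites shared slides 2 and 3. Within slide 2 the difference between responses was 0.79 for MS4A2, 0.44 for FCER1A, -0.34 for CMA1 and -0.14 for KIT. Within slide 3 it was 1.64, 1.73, 1.14 and -0.10 in the same order. With slide as a fixed block it was 1.10 for MS4A2 (adjusted p = 0.101), 0.88 for FCER1A (adjusted p = 0.129) and 0.46 for CMA1 (adjusted p = 0.522), and with the scan session as a block 1.15, 0.83 and 0.51. The sign of this difference was kept in each case by the receptor chains, while CMA1 was negative within slide 2, which held 1 allergen array from each group of dogs. In sensitized dogs alone, allergen minus saline within slides 2 and 3 was -0.09 and 0.71 for FCER1A and 0.06 and 0.72 for MS4A2.

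Against untreated skin, the receptor chains and chymase were higher at patch sites at 24 hr, allergen or saline, and KIT was lower. The rise reached the DEG rule at allergen sites of sensitized dogs and at saline sites of nonsensitized dogs for MS4A2, FCER1A and CMA1, and at saline sites of sensitized dogs for MS4A2. At 24 hr saline sites of nonsensitized dogs, MS4A2 was higher than in untreated skin in 6 of 6 dogs, by at least 1.16 and at the median 1.36, FCER1A in 6 of 6, by 0.61, 0.91 and 1.17 (lowest, median and highest), and CMA1 in 6 of 6, by 0.88, 0.90 and 1.22. At 24 hr allergen sites of sensitized dogs, MS4A2 was higher in 5 of 5 dogs, by 1.04, 1.17, 1.42, 1.45 and 1.67, FCER1A by 0.41, 0.92, 1.02, 1.27 and 1.37, and CMA1 by 0.14, 0.50, 0.92, 1.19 and 1.26. Every dog moved up in these comparisons. The comparisons share the untreated arrays of each group of dogs and are given side by side.

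In limma, 3 of the 4 genes were DEG at 24 hr allergen sites of sensitized dogs against untreated skin, where 13.8% of all probes were. MS4A2 rose by 1.40 (SE 0.28, adjusted p = 9.57e-05), which is 2.64-fold, FCER1A by 1.09 (SE 0.27, adjusted p = 0.00102) and CMA1 by 0.83 (SE 0.28, adjusted p = 0.0157). In nonsensitized dogs 0 of 4 were DEG at allergen sites, where 17% of all probes were, and 3 of 4 had an unadjusted p below 0.05, as did 51.6% of all probes. The exact sign flips gave p = 0.03125, their smallest, for all 4 genes, and adjusted p = 0.0852. In limma MS4A2 stood 0.63 (adjusted p = 0.0503), CMA1 0.59 (adjusted p = 0.0656) and FCER1A 0.42 (adjusted p = 0.174) above untreated skin, just short of the rule for the first 2 genes. With the dog as a block, random or fixed, MS4A2 (adjusted p = 0.00365 and 0.000157) and CMA1 (adjusted p = 0.00644 and 0.00046) were DEG there as well. The block cannot change these estimates, since each of these dogs gave both arrays. In these fits 17.6% and 17.8% of all probes were DEG. The second probe of FCER1A differed from its main probe here, with 0.78 (SE 0.24, adjusted p = 0.00611).

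At saline sites, 1 of the 4 genes was a DEG at 24 hr in sensitized dogs, where 9.52% of all probes were. MS4A2 rose by 0.81 (SE 0.27, adjusted p = 0.0163), while FCER1A stood 0.55 (adjusted p = 0.0871) and CMA1 0.55 (adjusted p = 0.108) above untreated skin. With the dog as a random or fixed block, these FCER1A (adjusted p = 0.0133 and 0.00297) and CMA1 differences (adjusted p = 0.0149 and 0.0016) passed the FDR but not the fold limit, as did the 0.42 of FCER1A at allergen sites of nonsensitized dogs (adjusted p = 0.0492 and 0.0166). In nonsensitized dogs 3 of the 4 were DEG at saline sites, where 22.7% of all probes were. MS4A2 rose by 1.33 (SE 0.27, adjusted p = 3.83e-05), CMA1 by 0.97 (SE 0.27, adjusted p = 0.00202) and FCER1A by 0.90 (SE 0.25, adjusted p = 0.00247). The MS4A2 call in sensitized dogs was lost without dog 2839 (0.70, adjusted p = 0.0716) and without dog 2853 (0.75, adjusted p = 0.0529). The CMA1 call at allergen sites of sensitized dogs was lost without dog 2840 (0.73, adjusted p = 0.0628) and without dog 2853 (0.73, adjusted p = 0.0632).

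**Figure D3:**
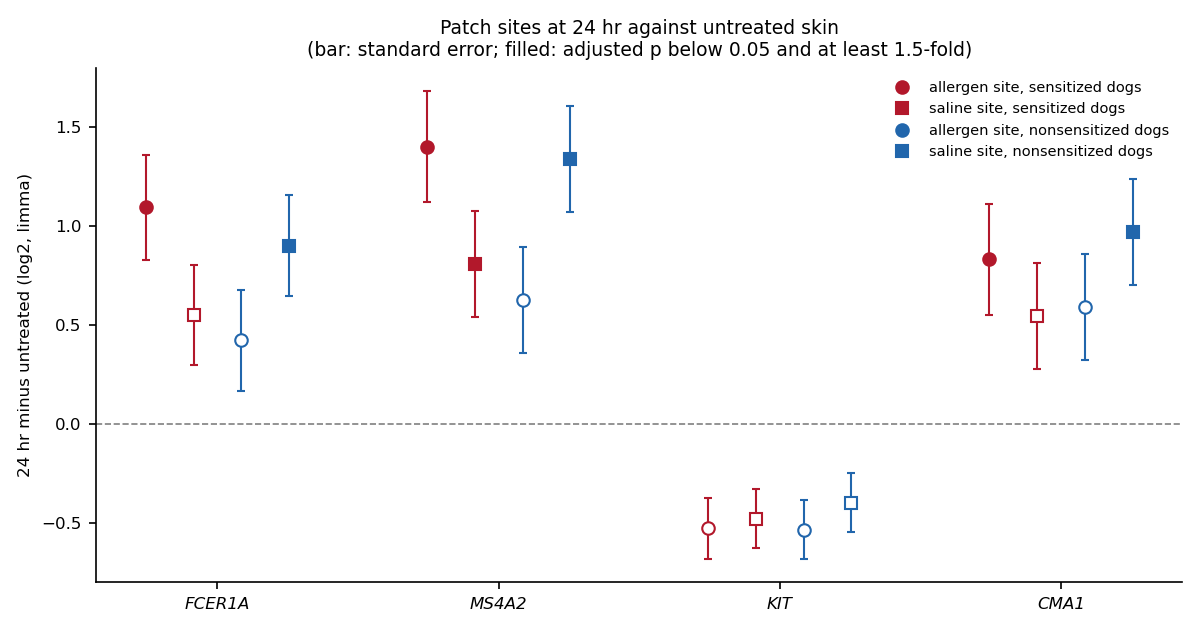
Difference of 24 hr patch sites from untreated skin (log2, limma, vertical axis) for the main probes of FCER1A, MS4A2, KIT and CMA1 (horizontal axis), circles for allergen and squares for saline sites, red for sensitized and blue for nonsensitized dogs, with standard errors. Filled symbols mark DEG; MS4A2 reaches 1.40 at allergen sites of sensitized dogs and 1.33 at saline sites of nonsensitized dogs, and KIT lies between -0.53 and -0.40.

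KIT was lower at 24 hr than in untreated skin in each of the 4 groups of patch sites, by less than the fold limit. The differences were -0.53 (SE 0.15, adjusted p = 0.006) and -0.48 (SE 0.15, adjusted p = 0.0105) at allergen and saline sites of sensitized dogs, and -0.53 (SE 0.15, adjusted p = 0.00275) and -0.40 (SE 0.15, adjusted p = 0.0214) in nonsensitized dogs. Within a dog KIT was lower in 5 of 5, 6 of 6, 6 of 6 and 5 of 6 dogs in the same order. The second KIT probe gave -0.48, -0.41, -0.36 and -0.31. Dog 2716, at 0.14, was the exception at saline sites of nonsensitized dogs. KIT passed the fold limit as well at allergen sites of sensitized dogs with 75th percentile scaling (-0.59), with all 60 arrays (-0.62) and without the slide 8 array (-0.63), and at those of nonsensitized dogs with 75th percentile scaling (-0.59). In unscaled values it was nearer to untreated skin, at -0.26 and -0.19 at allergen and saline sites of sensitized dogs and at -0.0891 and 0.12 in nonsensitized dogs, with adjusted p between 0.287 and 0.660.

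Time and slide were not balanced: untreated skin lay on slides 6 to 8 and the 24 hr sites on slides 1 to 3, apart from 1 allergen array of sensitized dog 2840 on slide 8. Against the 3 untreated arrays of sensitized dogs on slide 8, this array stood higher by 1.63 for MS4A2, 1.19 for CMA1 and 0.88 for FCER1A, and differed by -0.05 for KIT. With slide as a random block, the rises of MS4A2, FCER1A and CMA1 at allergen sites of sensitized dogs were 1.35, 0.97 and 0.78 and remained DEG, as did those at saline sites of nonsensitized dogs, 1.39, 0.95 and 1.04. With slide as a fixed block, which rests on that single bridging array, the MS4A2 rise at allergen sites of sensitized dogs was 1.44 (adjusted p = 0.0427). The FCER1A and CMA1 calls there (0.74, adjusted p = 0.262; 0.97, adjusted p = 0.182) and the calls at saline sites were lost, with MS4A2, CMA1 and FCER1A at 1.61, 1.43 and 0.82 in nonsensitized dogs (adjusted p = 0.149, 0.201 and 0.461). KIT came to -0.13 at allergen sites of both groups of dogs, 0.03 at saline sites of sensitized dogs and 0.04 at those of nonsensitized dogs. Apart from the array of dog 2840, no 24 hr array in use shared a slide with untreated skin. Slide and time therefore cannot be told apart here for KIT, and the same holds for MS4A2, FCER1A and CMA1.

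The scaling between arrays also bears on these comparisons. Without scaling, the median over all probes itself shifted from untreated skin by 0.21 and 0.28 at 24 hr at the allergen and the saline sites of sensitized dogs and by 0.49 and 0.51 in nonsensitized dogs, and by 0.11 between both groups of untreated skin. Scaling to the 75th percentile shifted it by -0.12 at 24 hr allergen sites of sensitized dogs. KIT at saline sites of nonsensitized dogs was 0.12 above untreated skin in unscaled values, below that shift of all probes.

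At 6 hr, 0 of the 4 genes were DEG against untreated skin in any of the 4 groups of patch sites in limma. All probes gave 3.88% at allergen and 2.65% at saline sites of sensitized dogs, and 1.61% and 2.27% in nonsensitized dogs. An unadjusted p below 0.05 was found for 1 of 4 genes (MS4A2) at allergen sites of either group of dogs and for 0 of 4 at saline sites. Over all probes these shares were 32.6% and 22.9% at allergen and 27.1% and 25.6% at saline sites of sensitized and nonsensitized dogs. MS4A2 stood 0.69 (SE 0.27, adjusted p = 0.0621) above untreated skin at allergen sites of sensitized dogs, and was higher in 6 of 6 dogs, by 0.44, 0.76 and 0.78 (exact p = 0.03125, adjusted p = 0.0852). At allergen sites of nonsensitized dogs it stood 0.54 (SE 0.27, adjusted p = 0.214) above, also in 6 of 6 dogs. With the dog as a block, random or fixed, 1 of the 4 genes (MS4A2) was a DEG at the allergen sites of sensitized dogs. In these fits 4.5% and 4.67% of all probes were DEG there. MS4A2 was a DEG there as well when dog 2716 or dog 2802 was left out.

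Over all 59 arrays the receptor chains and chymase rose and fell together, and KIT stood apart. The correlation of levels was 0.892 between FCER1A and MS4A2, 0.893 between FCER1A and CMA1 and 0.814 between MS4A2 and CMA1. After the mean of each group was removed, these values were 0.829, 0.879 and 0.760, so the 3 genes also moved together among dogs of 1 group. KIT had r between -0.396 and -0.336 with the other 3 genes, and between -0.0843 and 0.105 after group means were removed. The arrays share dogs and slides, and these values serve as a description.

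Of 1245 named genes compared over the 59 arrays, those whose levels ran most like FCER1A were MS4A2 (r = 0.897 for its best probe), CMA1 (0.893), the class II genes HLA-DRB1 (0.864) and DLA-DRA (0.845), which present antigen, and the immunoproteasome gene PSMB8 (0.859). For MS4A2 they were FCER1A (0.892), PSMB8 (0.892), APBB1IP (0.857), GLIPR1 (0.846) and the pattern receptor TLR2 (0.843). CMA1 was most like FCER1A (0.893), MS4A2 (0.829), HLA-DRB1 (0.812), PCP4L1 (0.805) and DLA-DRA (0.798). With group means removed, MS4A2 moved to place 5 for CMA1 (0.791), behind HLA-DRB1 (0.803), and CMA1 to place 1 for FCER1A (0.879). For FCER1A, PSMB8 then came to place 8 (0.798) and DLA-DRA to 12 (0.776). PCP4L1, which is on the study's list, came to place 10 for CMA1 (0.732). For MS4A2 with group means removed, FCER1A and PSMB8 kept places 1 and 2, GLIPR1 came to place 7, APBB1IP to 9 and TLR2 to 52 (0.650), and these last 3 are on the study's list. HDC had r = 0.830 with MS4A2, 0.758 with FCER1A and 0.691 with CMA1. KIT had no close match: its first 5 were ITGA2B (0.697), CELA1 (0.683), PIM1 (0.682), DBH (0.681) and CASR (0.680). With group means removed, ITGA2B, CELA1 and DBH took places 1 to 3, while CASR came to place 13 (0.494) and PIM1 to 23 (0.463).

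The other genes of mast cell growth, IgE signaling and mediators were described from a list of 72 genes, of which 26 could be named on the array and 24 passed the filter. Of these 24, 9 are on the study's list of genes that differed at 24 hr on these arrays, so that counts over them are not independent evidence of direction. At 24 hr, 1 gene rose and 0 fell at allergen against saline sites of sensitized dogs (0.274% of all probes were DEG), 0 rose and 7 fell in nonsensitized dogs (0.766%), and for 6 the response was higher in sensitized than in nonsensitized dogs (0.942%). The 1 gene that rose and all 6 of the last group are on the study's list, as are 6 of the 7 that fell. The median difference over the 24 genes was 0.15, -0.33 and 0.82 in these comparisons, while the medians over all probes were within 0.01 of 0. Against untreated skin, 13 of the 24 rose and 2 fell at 24 hr allergen sites of sensitized dogs (13.8% of all probes) and 11 and 2 at their saline sites (9.52%), with 8 and 2 at allergen (17%) and 12 and 2 at saline sites (22.7%) of nonsensitized dogs.

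KITLG, the gene of stem cell factor and thus the ligand of KIT, differed little between allergen and saline sites, with 0.01 and -0.11 at 6 hr and -0.04 and 0.03 at 24 hr in sensitized and nonsensitized dogs. Its 24 hr level lay below untreated skin, with differences of -0.43 and -0.40 at allergen and saline sites of sensitized dogs (adjusted p = 0.0237 and 0.0347) and of -0.33 and -0.36 in nonsensitized dogs (adjusted p = 0.0678 and 0.0403), within the fold limit, as for KIT. MITF, a transcription factor of mast cells and melanocytes, stood at -0.56, -0.47, -0.13 and -0.43 in the same order of allergen and saline sites, sensitized dogs first.

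FCER1G, the gamma chain that completes the receptor, lay at 6.83, 7.50 and 7.81 (lowest, median and highest) at 24 hr allergen sites and at 6.48, 6.83 and 7.21 at saline sites of sensitized dogs. Nonsensitized dogs had it at 6.24, 6.60 and 6.95 at allergen and at 6.29, 6.91 and 7.64 at saline sites. Its allergen minus saline difference was positive in 3 of 5 sensitized dogs and negative in 5 of 6 nonsensitized dogs. In the unpaired fit the difference between responses was 0.92 (SE 0.32, adjusted p = 0.129), short of the test like that of the alpha chain. The alpha chain was a DEG with the dog as a block, and no such value is given for FCER1G. Against untreated skin it rose by 1.05 (SE 0.23, adjusted p = 0.000278) at 24 hr allergen sites of sensitized dogs and by 0.70 (SE 0.22, adjusted p = 0.00577) at saline sites of nonsensitized dogs, the same pair of groups as for FCER1A and CMA1.

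HDC, which makes histamine from histidine, was a DEG already at 6 hr. At 6 hr it lay at 5.40, 6.04 and 6.42 at saline and at 6.33, 7.02 and 7.42 at allergen sites of sensitized dogs, a rise in 6 of 6 dogs of 0.98 in limma (SE 0.23, adjusted p = 0.0232). The ranges overlapped only at their edges. At 24 hr it fell by 1.32 (SE 0.23, adjusted p = 0.000405) at allergen sites of nonsensitized dogs, in 6 of 6 dogs, from 6.90, 7.83 and 8.59 at saline to 6.29, 6.48 and 6.86 at allergen sites, and these ranges did not overlap. In sensitized dogs at 24 hr the difference was 0.18 (SE 0.24). The 24 hr responses differed 2.83-fold (log2 SE 0.33, adjusted p = 0.0153), higher in sensitized dogs. HDC is on the list that the study drew from these arrays at 24 hr, so its 24 hr calls are not independent evidence.

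At 6 hr in sensitized dogs, 3 of the 24 genes rose at allergen sites, where 0.42% of all probes were DEG: HDC, the prostaglandin synthase gene PTGS2 (2.56, SE 0.45) and the chemokine gene CCL2 (2.85, SE 0.42). In nonsensitized dogs 0 of 24 passed at 6 hr, where 0.0348% of all probes were DEG. For the difference between responses 0 of 24 passed, in a comparison in which no probe on the array did. The medians over the list were 0.41, 0.12 and 0.27. At 24 hr the gene that rose at allergen sites of sensitized dogs was IL13RA2, a decoy receptor for IL-13 (1.02, SE 0.26). It fell by 1.20 (SE 0.25) in nonsensitized dogs, where HDC, CCL2 (-2.21), IL33 (-1.78), the IgG receptor FCGR1A (-1.79) and ADORA2B (-0.59) fell as well, with FCGR3A as the last of the 7 called. The difference between responses was 2.22 for IL13RA2, 2.36 for CCL2, 1.84 for FCGR2B and 1.66 for CD33, and FCGR3A was called too. No size is given for FCGR3A, since it was well above background on 18 of the 59 arrays, with 5 of 5 and 5 of 6 at 24 hr at the allergen and the saline sites of sensitized dogs and 2 and 4 of 6 in nonsensitized dogs.

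**Figure D4:**
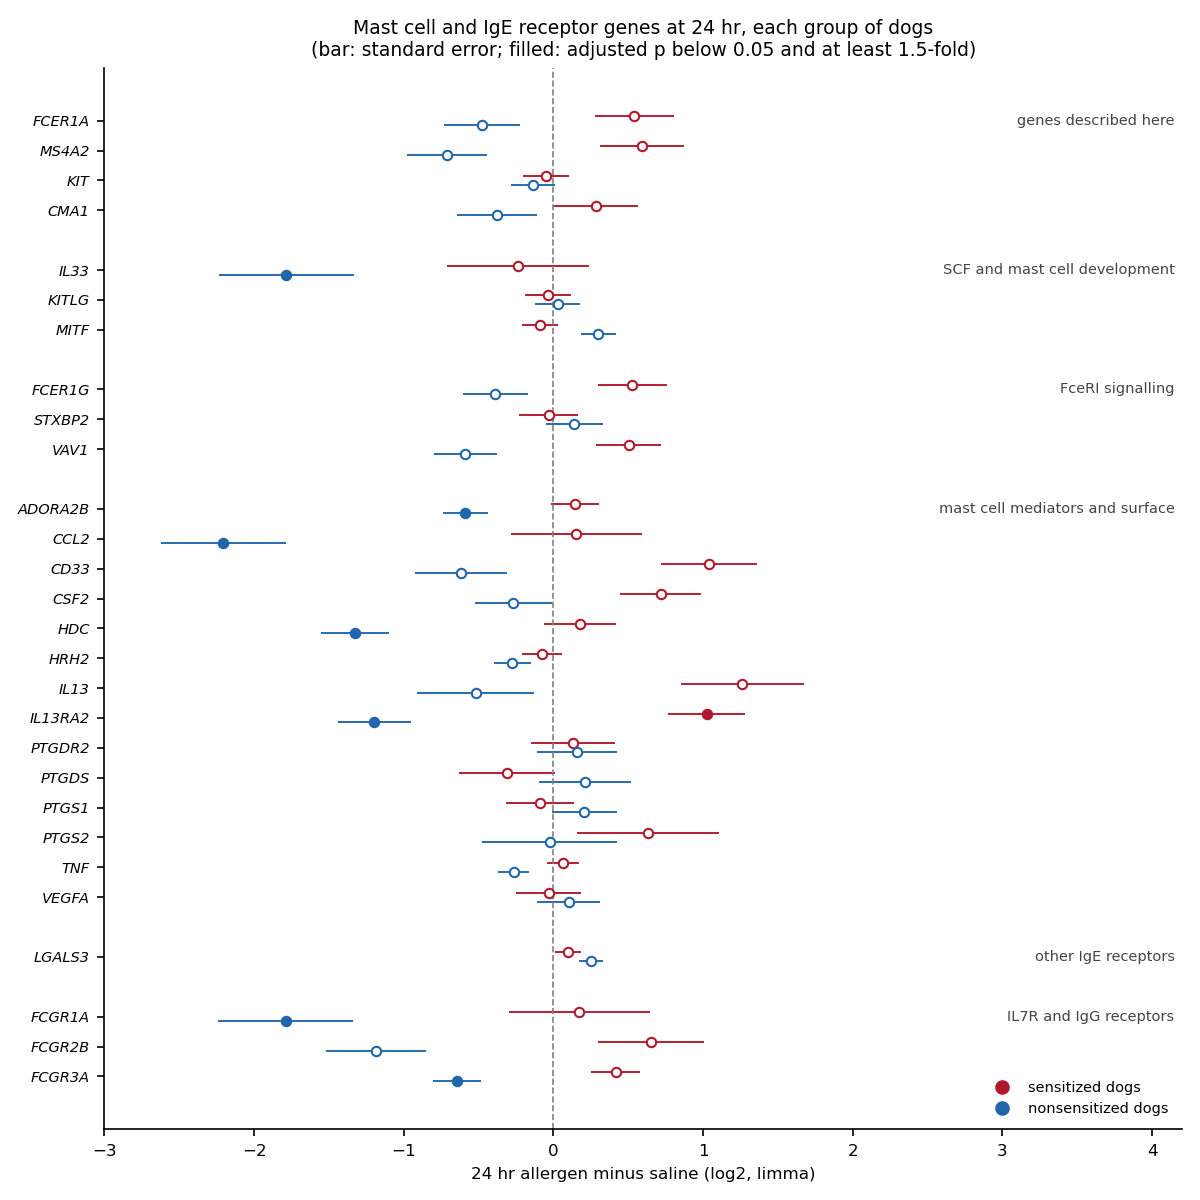
Allergen minus saline at 24 hr (log2, limma, horizontal axis) for the 4 genes described and the 24 further genes of the list (vertical axis), red for sensitized and blue for nonsensitized dogs, with standard errors and DEG as filled symbols. HDC lies at 0.18 in sensitized and -1.32 in nonsensitized dogs, MS4A2 at 0.59 and -0.71, and KIT at -0.05 and -0.14.

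Markers of other cells of the skin were described by lists as well. Of the macrophage and monocyte markers, 2 of 6 could be named, CD163 and MRC1, of which MRC1 was the brighter, and both were well above background on all arrays. Their summed log2 level lay at 10.43, 11.13 and 11.65 at 24 hr saline and at 10.78, 11.56 and 12.04 at allergen sites of sensitized dogs, and at 10.82, 11.50 and 12.18 at saline and 10.36, 10.50 and 10.99 at allergen sites of nonsensitized dogs. In untreated skin the medians were 9.49 and 9.51. MRC1 fell by 0.97 (SE 0.22) at allergen sites of nonsensitized dogs, and the difference between its responses was 1.61 (SE 0.32, adjusted p = 0.00886); MRC1 is on the study's list, so these calls are not independent evidence. The part of these cells in the results for FCER1A and MS4A2 was not tested.

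Of the neutrophil markers 3 of 7 could be named, S100A8, CXCR2 and ELANE. S100A8 was the brightest and adds most to the sum, while CXCR2 and ELANE were well above background on 54 and 56 of the 59 arrays. The summed level of the 3 genes lay at 14.19, 14.93 and 15.74 at 24 hr saline and at 16.63, 17.49 and 17.71 at allergen sites of sensitized dogs, without overlap. In nonsensitized dogs it lay at 13.89, 14.97 and 16.46 at saline and at 13.52, 14.88 and 16.43 at allergen sites. None of the 3 genes was a DEG between allergen and saline sites in limma, with S100A8 at 2.44 (SE 0.69, adjusted p = 0.0894) in sensitized dogs. Of all probes, 0.42% and 0.0348% were DEG at 6 hr and 0.274% and 0.766% at 24 hr in sensitized and nonsensitized dogs. Of the T cell markers 4 of 8 could be named, with CD4 the brightest. Their sum had medians of 8.27 and 8.57 at 24 hr saline and allergen sites of sensitized dogs and of 8.11 and 7.95 in nonsensitized dogs, and CD28, well above background on 33 of the 59 arrays, was called in sensitized dogs and for the difference between responses, with no size given, since it was not above background on all arrays compared; it is on the study's list. Their part in the results was not tested.

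Other cells that can carry the alpha chain were thinly covered. Of the basophil and eosinophil markers 1 of 8 could be named, CCR3, well above background on 20 of the 59 arrays, with 5 of 5 at 24 hr allergen sites of sensitized dogs and 1 of 6 in nonsensitized dogs. At saline sites it was so on 3 of 6 and 2 of 6, and no size of its change is given. Of the Langerhans and dendritic cell markers 3 of 8 could be named, with CD86 the brightest, and none was a DEG between allergen and saline sites in limma. The shares of all probes were 0.42% and 0.0348% at 6 hr and 0.274% and 0.766% at 24 hr in sensitized and nonsensitized dogs. The sum of these markers had medians of 9.99 and 10.48 at 24 hr saline and allergen sites of sensitized dogs and of 10.12 and 10.04 in nonsensitized dogs. The part of these cells was not tested.

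Of the melanocyte markers, which bear on KIT, 5 of 7 could be named and 4 passed the filter, with PMEL the brightest. Their summed level had medians of 13.66 in untreated skin of sensitized dogs and of 13.01 and 13.29 at 24 hr saline and allergen sites, and of 13.07, 11.91 and 12.36 in nonsensitized dogs. At 24 hr saline sites of nonsensitized dogs 3 of the 4 fell (PMEL by 1.15, MLANA by 1.33 and MC1R by 0.64), where 22.7% of all probes were DEG, and at their allergen sites 1 did (PMEL by 0.90), where 17% were. In sensitized dogs none of the 4 was a DEG at 24 hr in limma, where 13.8% of all probes were at allergen and 9.52% at saline sites. The groups of dogs were not tested against each other here, and the part of these markers in the lower KIT level was not tested.

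Of the keratinocyte markers 3 of 6 could be named, with KRT1 the brightest and medians of the sum of 17.13 and 16.94 at 24 hr saline and allergen sites of sensitized dogs and of 17.14 and 17.42 in nonsensitized dogs, and DSP was lower in the response of sensitized dogs (-0.62, SE 0.16, adjusted p = 0.0412), a gene that is also on the study's list. Endothelial markers (2 of 5 named, VWF the brightest) and fibroblast markers (3 of 6 named, COL1A2 the brightest) gave no DEG between allergen and saline sites. There 0.42% and 0.0348% of all probes were DEG at 6 hr and 0.274% and 0.766% at 24 hr in sensitized and nonsensitized dogs. Of the B and plasma cell markers 1 of 5 could be named, and it did not pass the filter. A list of 9 mast cell markers had 3 that could be named, HDC beside MS4A2 and CMA1, while the tryptases and CPA3 were not named here, so the mast cell signal rests on few genes.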

How the data were processed

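The deposited files hold scanner output of one-color arrays; per the file headers, Agilent Feature Extraction 10.7.3.1 gave a processed intensity for each spot. Outlier spots were left out, and probes well above background on 5 or more arrays of any group were kept, which left 45972 of 60068 probes. Intensities were scaled with the variance stabilizing model that the authors used, re-implemented and tested on simulated data, and spots of a probe averaged. Of 54633 identifiers, 1080 were named through the RefSeq gene table (assembly UU_Cfam_GSD_1.0) and 424 through the study's gene list alone. A joint limma 3.58.1 fit (R 4.3.3) of 10 group means on 59 arrays, unpaired as in the study, had 49 residual degrees of freedom and Benjamini-Hochberg adjustment over all probes. Differences within dogs were tested by exact two-sided sign flips or permutations (Python 3.11.15). The labels tie the samples to dogs: residuals of 2 arrays correlated at 0.386 (median of 116 pairs) within a dog and at -0.0438 (1595 pairs) between dogs, so the dog pairs the samples, and fits with the dog as a block are given. Alternatives covered scaling, background correction, filter, specimen 14, dog, slide, scan session (3 sessions), probe summary and single dogs. Named genes are the 4 genes, listed pathway genes that passed the filter and were called or hold a named role, listed cell markers, and the 5 named genes most like each gene. The genes and lists were chosen with earlier results of these data known.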

Additional observations from a re-analysis of the deposited data

Results flagged for a closer look

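CMA1 at 24 hr allergen sites of nonsensitized dogs had 1 sample far below the others: dog 2716 had a log2 level of 8.65, and the nearest of the other 5 dogs 9.23. This was 1 of 40 groups examined, and chance gives such a sample in about 1 in 20 groups.

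The difference between the 24 hr responses of sensitized and nonsensitized dogs stood out in 1 limma test and 3 permutation tests, the last before adjustment only. The second probe of MS4A2 gave a difference of 1.31 in limma (adjusted p = 0.0410). The exact permutation of dogs' labels gave mean differences of 1.35 for MS4A2 and 1.06 for FCER1A, both with p = 0.00216, the smallest it can give, and 0.70 for CMA1 with p = 0.013. Adjusted over 60 tests, these p-values were 0.0649, 0.0649 and 0.0852, so none of the 3 passed. MS4A2 is on the list that the study drew from these arrays.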

How the results depend on the processing

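Under up to 28 alternatives each, 1149 of 1212 values of the 44 differences of single genes kept their direction and side of the test, 11 lost the call, 38 gained it and 14 turned direction. The cause of these changes was not tested. For the difference between 24 hr responses, 0 DEG of 4 (0.942% of all probes) became 1 with all 60 arrays (1.67%) and 2 with these and array weights (2.47%). The count was 2 with the dog as a random replicate block (3.09%), 3 with it as a fixed block (3.54%), and 0 to 1 with single dogs left out. For 24 hr allergen against saline, the dog block gave 1 in sensitized dogs (fixed, 1.09% of all probes) and 1 in nonsensitized dogs (random, 1.3%, and fixed, 1.35%). Apart from these and the patch sites below, the dog block changed no other call.

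Against untreated skin, the 0 DEG at 6 hr allergen sites of sensitized dogs (3.88% of all probes) became 1 without a filter (6.17%) or with 60 weighted arrays (6.8%). The count was also 1 with either dog block (4.5% random, 4.67% fixed), and 0 to 1 with dogs left out. At 24 hr allergen sites of sensitized dogs 3 (13.8% of all probes) became 1 with slide as a fixed block (12.3%). The count was 2 to 3 with dogs left out (CMA1 lost without dog 2840 or 2853). It was 4, with KIT, with 75th percentile scaling (20.3%), 60 arrays (13.5%), no fold limit or without the slide 8 array. At 24 hr allergen sites of nonsensitized dogs 0 (17% of all probes) became 3 unscaled (47.2%). The count was 2 with 75th percentile scaling (25%), no filter (20.8%), 60 weighted arrays (19.6%), either dog block (17.6% random, 17.8% fixed) or the mean over probes (17%). It was 1 with no fold limit or without the 2 arrays that lack headers (chosen after seeing the data), and 0 to 2 with dogs left out. KIT, which was lower, is 1 of the 2 with 75th percentile scaling and the 1 with no fold limit. At saline sites of sensitized dogs 1 (9.52% of all probes) became 3 unscaled (21.3%) and 2 with no filter (11.4%), 60 weighted arrays (10.9%) or no fold limit. It became 0 with slide (8.12%) or scan session (1.41%) as a fixed block, where MS4A2 stood at 1.01 and 1.12, against 0.81 before. With dogs left out it was 0 to 1. At saline sites of nonsensitized dogs 3 (22.7% of all probes) became 0 with slide as a fixed block (3.38%) and 4, with KIT, with no fold limit. Of the 60 tests within dogs, 0 with adjusted p below 0.05 became 3 unscaled.

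Directions turned in 14 values. At 6 hr, CMA1 in sensitized dogs was 0.0517 without dog 2855 (-0.18 to 0.0517 over all dogs left out). In nonsensitized dogs FCER1A was -0.23 and -0.0315 with slide as a fixed and random block, and MS4A2 -0.0610 with slide fixed and -0.0164 without dog 2704 (-0.0164 to 0.25 over all dogs left out). The 6 hr difference between responses for FCER1A was -0.0485, -0.0191 and -0.0576 without dogs 2802, 2838 and 2840 (-0.0576 to 0.23 over all dogs left out). For KIT at 24 hr it was -0.00133 with 60 arrays, -0.0740 with weights and -0.0168 without the slide 8 array (chosen after seeing the data). KIT at 24 hr saline sites against untreated skin was 0.0269 in sensitized and 0.0395 in nonsensitized dogs with slide fixed, and 0.12 unscaled in nonsensitized dogs.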

Other observations

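Specimen 14, left out of the comparisons, had degraded RNA, a median signal of 71.0 (81.7 to 146 on the other arrays) and 67.6% of spots well above background (68.8% to 80.2%). It was measured on the same scale when all 60 arrays were scaled together. Its MS4A2 level was 11.21, against 9.36 to 10.30 in the other 5 sensitized dogs at 24 hr allergen sites, and 1.63 above the saline site of the same dog. FCER1A was at 12.57, against 10.72 to 12.04, and 1.41 above the saline site. CMA1 was at 9.90, against 8.27 to 9.86, and KIT at 7.21, against 7.46 to 8.17. Specimen 14 thus lay beyond the other dogs for each of the 4 genes, above them for 3 and below them for KIT.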
